A study of Homo sapiens with 9 samples.

Results

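Chromatin immunoprecipitation with sequencing (ChIP-seq) peaks were examined around 8 genes that maintain epithelial identity, namely ESRP1, ESRP2, GRHL1, GRHL2, OVOL1, OVOL2, ELF3 and KLF5. A peak was taken to belong to a gene when its summit, the base of highest enrichment, lay within 20 kb of one hg19 start position set for that gene. The positions set for ESRP2, OVOL2 and KLF5 are round figures, so distances at these genes are approximate. By this rule 27 of the 47426 peaks in 5 lists belonged to 7 of the 8 genes, and GRHL1 had none. ZEB1 accounted for 20 of these peaks and CTCF for 7.

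The lists come from 4 ZEB1 samples and 1 CTCF sample, 1 for each condition. The first ZEB1 sample came from the delta-Repeat clone of MiaPaCa2. That clone was derived by dilution after electroporation with plasmids for Cas9 nickase and guide RNA pairs aimed at DNA repeats that precede the MIR200A and MIR200B genes. The second came from the WT clone, a clonal derivative of MiaPaCa2 that had received the Cas9 nickase plasmids and served as its control. The third and the fourth came from unmodified MiaPaCa2, a pancreatic ductal adenocarcinoma line, and from unmodified RKO, a colon carcinoma line. CTCF was precipitated from unmodified MiaPaCa2 cells. Each clone stands for itself alone, both clones shared 1 antibody lot, and the unmodified lines each had another, so lot and cell source cannot be told apart. The lists are of unequal length, with 2160 peaks in the delta-Repeat clone, 1515 in the WT clone, 4804 in MiaPaCa2, 7193 in RKO and 31754 for CTCF, and read depth is unknown. No difference between conditions could therefore be tested, and the absence of a peak means that none was called.

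ZEB1 is a zinc-finger repressor that drives the epithelial-to-mesenchymal transition and binds E-box sequences in the regulatory regions of epithelial genes. ESRP1 and ESRP2 are RNA-binding proteins that set epithelial splicing patterns. GRHL1 and GRHL2 are grainyhead-like transcription factors that activate junction genes, and GRHL2 and ZEB1 repress each other. OVOL1 and OVOL2 are zinc-finger repressors that keep mesenchymal genes, ZEB1 among them, off in epithelia, while ELF3 and KLF5 are epithelial transcription factors of the ETS and Krüppel-like families. RNA was not measured here, so it is not known which of the 8 genes were expressed in these cells.

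ZEB1 peaks near these genes fell into 2 kinds. OVOL2 and ELF3 had a ZEB1 peak in all 4 ZEB1 lists as deposited, and OVOL2 alone kept this with a stricter threshold (minimum fold 5, minimum −log10 q 10) or with all ZEB1 lists cut to 1515 peaks. ESRP1 and KLF5 had one in unmodified MiaPaCa2 alone, and ESRP2, GRHL2 and OVOL1 had one in RKO alone. Of the 8 genes, 2 had a peak in the delta-Repeat clone, 2 in the WT clone, 4 in MiaPaCa2, 5 in RKO and 4 in the CTCF list. As a background, the genome was divided into 75820 bins of 40 kb, the width of the window around a start. A summit was present in 2.51% of bins for the delta-Repeat clone, 1.79% for the WT clone, 4.93% for MiaPaCa2, 6.43% for RKO and 28.2% for CTCF. Bins spread evenly over the genome are a low reference for start sites, since they include long stretches without genes. Counting only the bins that held a CTCF summit raised the ZEB1 shares to 6.03%, 4.42%, 11.9% and 15.0% in the same order.

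**Figure D1:**
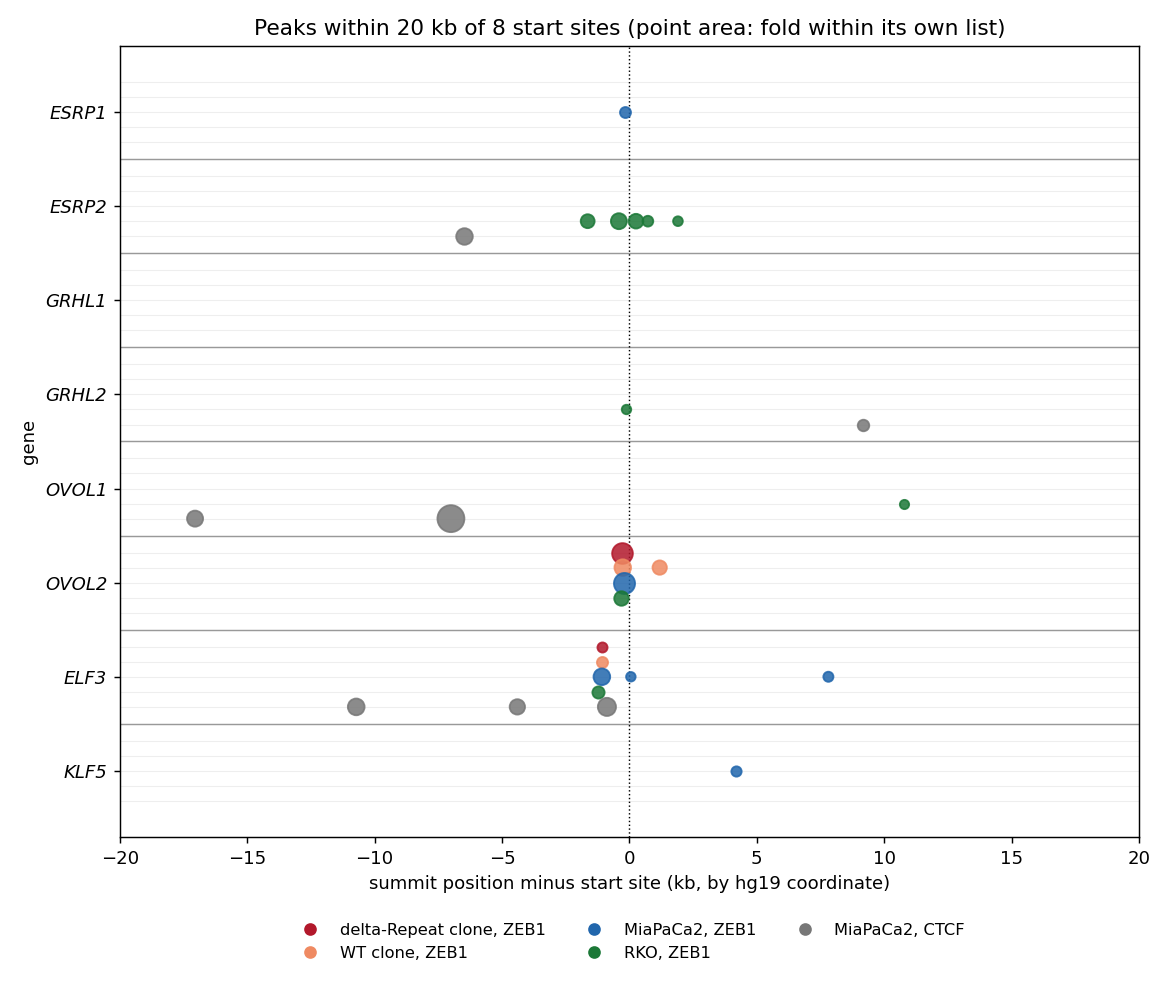
Position of every peak summit within 20 kb of the 8 start sites, in kb by hg19 coordinate, with 1 row per peak list within each gene (delta-Repeat clone at the top, then WT clone, MiaPaCa2, RKO and CTCF). Point area is proportional to the fold enrichment in the peak's own list. Over the 4 ZEB1 lists together, summits within 500 bp of the start are seen at 5 genes. Most summits of the CTCF list lie several kb away. The shares of all ZEB1 and CTCF peaks this close to a start were not measured.

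The distance of summits from the starts varied. Of the 20 ZEB1 peaks, 10 had a summit within 1 kb of the start and 9 within 500 bp, and these 9 belonged to ESRP1, ESRP2, GRHL2, OVOL2 and ELF3. These are not separate sites, as 4 of the 9 are the OVOL2 site in the 4 lists and 2 belong to ESRP2 in RKO. Those at ESRP1 and ELF3 in MiaPaCa2 and at GRHL2 in RKO were each called in 1 list. Their folds were 6.24, 4.70 and 4.63. The shares of all ZEB1 and CTCF peaks this close to a start were not measured here. Of the 7 CTCF peaks, 1 had a summit within 1 kb. These counts use 1 position for each gene. KLF5 has 2 listed starts, 4029 bp apart in GRCh38.p14, and its ZEB1 summit lay 4168 bp past the position used.

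ELF3 had a MiaPaCa2 ZEB1 summit at its start, and GRHL1 had no peak within 20 kb in any list. The ELF3 peak at the start was weak (4.70-fold, −log10 q 4.80) and no other list shared it. For this contrast the promoter letters of ELF3 and GRHL1 are shown as a pair. Both are the 250 bases before the RefSeq start on the plus strand of GRCh38.p14, a different build from the peaks, at chr1:202010337-202010586 for ELF3 and chr2:9951443-9951692 for GRHL1. Capitals mark CACCTG, the E-box form bound by ZEB1, which reads CAGGTG on the other strand.
ELF3: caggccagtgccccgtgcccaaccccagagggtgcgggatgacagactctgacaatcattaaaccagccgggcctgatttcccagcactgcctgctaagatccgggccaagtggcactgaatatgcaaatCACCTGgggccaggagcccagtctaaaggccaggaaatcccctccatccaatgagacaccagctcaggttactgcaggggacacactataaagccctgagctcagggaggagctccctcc
GRHL1: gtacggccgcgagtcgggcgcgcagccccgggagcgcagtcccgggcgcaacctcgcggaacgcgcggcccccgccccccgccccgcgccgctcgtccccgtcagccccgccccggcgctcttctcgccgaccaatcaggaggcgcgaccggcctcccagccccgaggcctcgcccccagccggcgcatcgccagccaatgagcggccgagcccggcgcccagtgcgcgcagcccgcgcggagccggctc

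The ELF3 window held 1 CACCTG, whose first base lay 120 bases before the start, and the GRHL1 window held none. Measured from the hg19 start, the MiaPaCa2 peak at ELF3 ran from -58 to 156 bp and the next peak on the lower side ended at -883 bp. By these distances the CACCTG lay in no called ZEB1 peak, although the starts of the 2 builds were not matched. CACCTG or CAGGTG was present in 7231 of the 35116 RefSeq promoter windows of 300 bases, or 20.6%, so a match in a single promoter is common. Of the members outside chromosome 8 the table had windows for ELF3, GRHL1 and KLF5, the last with 2 listed starts. Neither KLF5 window held CACCTG or CAGGTG. The related form CAGGTA, which reads TACCTG on the other strand and cannot coincide with the first, was found once, in the window of the second KLF5 start, and in 9.83% of all windows. GRHL1 also lacked the general E-box CANNTG, which contains the first form, is its own reverse complement and was present in 68.7% of all windows. A further 20 epithelial genes, among them CDH1, EPCAM, CLDN7, RAB25, ST14 and GRHL3, could be examined only by their promoter letters, since no hg19 start sites were used for them. The table had 19 windows for 14 of these genes, and 8 windows, or 42.1%, held CACCTG or CAGGTG. In the same 19 windows CAGGTA or TACCTG was present in 1, or 5.26%, and CANNTG in 16, or 84.2%. These matches describe letters and do not show that ZEB1 was bound. The 20 further genes were chosen with earlier results of these data known. Whether their shares differ from those of all windows was not tested.

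OVOL2 carried the strongest ZEB1 peak of the 8 genes in the delta-Repeat clone, the WT clone and MiaPaCa2, and a broad one in 2 of these lists. In the delta-Repeat clone the peak lay on chromosome 20 from 18037980 to 18040040, enriched 22.0-fold over the caller's background (−log10 q 55.5). In the WT clone a peak from 18037889 to 18038915 had a 14.1-fold enrichment (−log10 q 27.1). A second WT clone peak from 18039512 to 18039934 had a 10.5-fold enrichment (−log10 q 16.3). Together these show ZEB1 enrichment over the OVOL2 start in both clones, called as 1 interval in the delta-Repeat clone and as 2 intervals 596 bp apart in the WT clone. Unmodified MiaPaCa2 had 1 peak from 18037769 to 18040097 with a 22.8-fold enrichment (−log10 q 56.4). RKO had a narrower peak from 18038004 to 18038585 with a 10.8-fold enrichment (−log10 q 23.4).

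The main OVOL2 summits of all 4 ZEB1 lists lay at nearly the same place. They were 296 bp from the start in the delta-Repeat clone, 260 bp in the WT clone, 230 bp in MiaPaCa2 and 316 bp in RKO, each at the lower coordinate. OVOL2 is read toward lower coordinates, so these summits were on the gene's side of the start. The second WT clone summit lay 1190 bp to the other side. The RKO peak ended 85 bp past the start and did not overlap this second WT clone peak.

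Folds cannot be set against each other across lists, because each depends on the depth and control of its own sample. Within its own list, the share of peaks with a fold at least as high as that at OVOL2 was 3.61% in the delta-Repeat clone, 12.1% in the WT clone, 3.35% in MiaPaCa2 and 11.5% in RKO. In the 3 lists from MiaPaCa2 and its clones the site stood higher by width than by fold. The peak was 2061 bp wide in the delta-Repeat clone and 2329 bp in MiaPaCa2, where list medians were 336.5 and 379 bp, and 0.185% and 0.104% of the peaks in these lists were at least as wide. The WT clone peak was 1027 bp wide, matched or exceeded by 1.45% of its list, and the RKO peak was 582 bp wide, matched or exceeded by 16.8%. When the ZEB1 peaks were joined across lists, 916 of 9306 regions, or 9.84%, were present in all 4. The OVOL2 region of 2329 bp was as wide as or wider than nearly all of these, since 1.09% reached its width, against a median of 799 bp. No CTCF peak was near OVOL2, the nearest CTCF summit being 61.6 kb away.

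**Figure D2:**
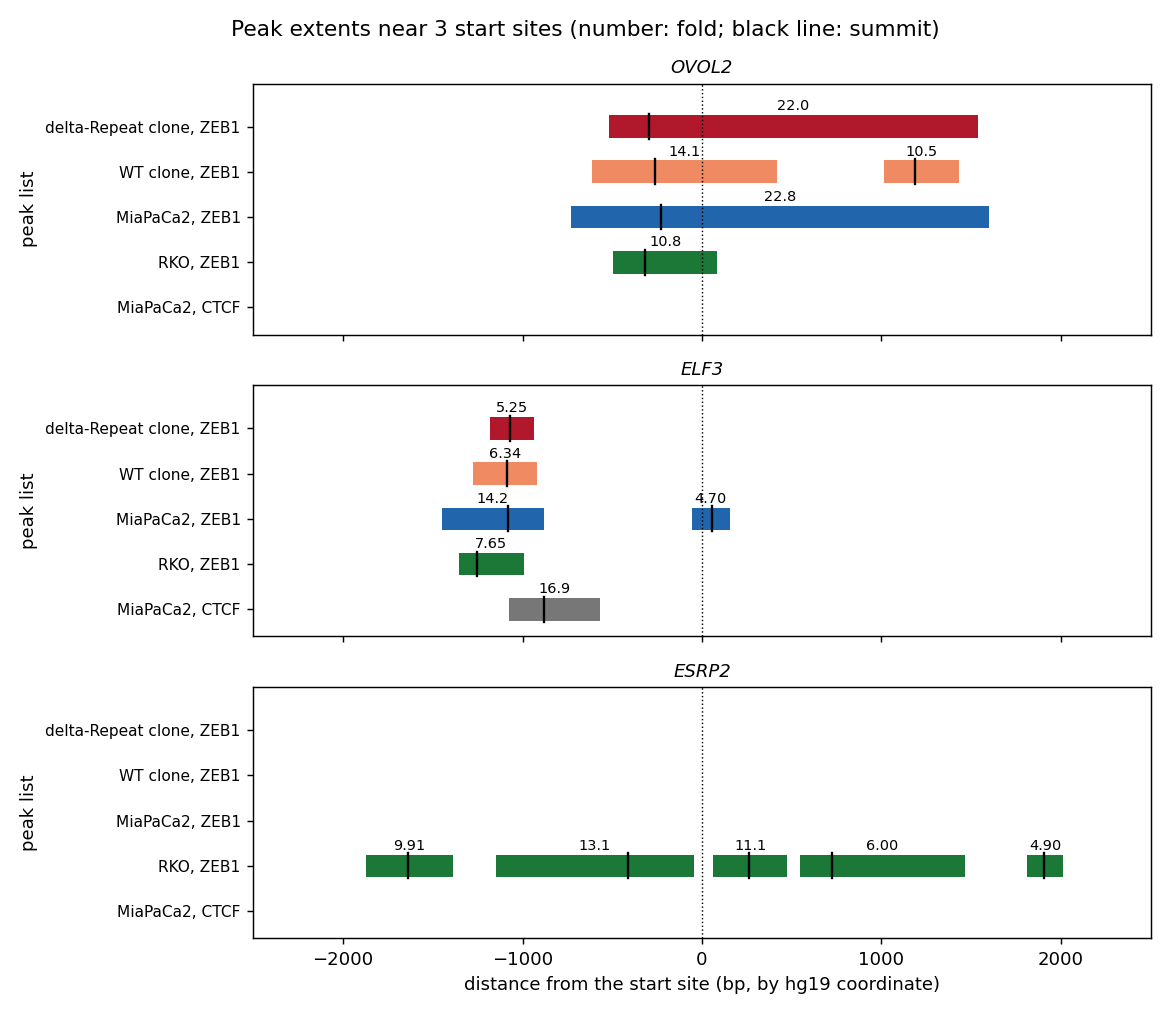
Called peak intervals within 2500 bp of the starts of OVOL2, ELF3 and ESRP2 in the 5 lists, in bp from the start by hg19 coordinate. Bars are peaks, black lines are summits and numbers are folds within the peak's own list. OVOL2 and ELF3 have a ZEB1 bar in every ZEB1 list, and the 5 ESRP2 bars are all from RKO.

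ELF3 had the other site present in all 4 deposited ZEB1 lists. Its call was lost from both clones with the stricter threshold, and from the delta-Repeat clone and RKO with lists of equal length. The WT clone list, with 1515 peaks, set that length and could lose none. The peak before the start lay on chromosome 1 from 201978511 to 201978753 in the delta-Repeat clone, where it was enriched 5.25-fold (−log10 q 6.34). In the WT clone it ran from 201978414 to 201978768, with a 6.34-fold enrichment (−log10 q 8.45). In MiaPaCa2 it ran from 201978244 to 201978807, with a 14.2-fold enrichment (−log10 q 37.5). This made it a low-ranking peak in both clones and a high-ranking one in MiaPaCa2. The shares of peaks at or above it by fold were 85.4% in the delta-Repeat clone, 70.2% in the WT clone and 9.49% in MiaPaCa2. In RKO the peak ran from 201978336 to 201978695, with a 7.65-fold enrichment (−log10 q 13.4), and 27.6% of the list was at or above it.

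The ELF3 summits of the 3 MiaPaCa2-derived lists nearly coincided, at 1067 bp before the start in the delta-Repeat clone, 1087 bp in the WT clone and 1080 bp in MiaPaCa2. The RKO summit lay farther out, at 1251 bp, and was 171 bp from that of MiaPaCa2. ELF3 had 2 more peaks in MiaPaCa2 that no other list shared. One ran from 201979632 to 201979846 across the start, with its summit 58 bp past it and a 4.70-fold enrichment (−log10 q 4.80). The other ran from 201987399 to 201987849, with its summit 7811 bp past the start and a 5.24-fold enrichment (−log10 q 6.01). Both were weak, with 89.5% and 79.5% of the MiaPaCa2 list at or above them by fold.

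ELF3 was also the one place among the 8 genes where ZEB1 and CTCF peaks met. A CTCF peak from 201978616 to 201979121, with a 16.9-fold enrichment (−log10 q 76.1), overlapped the MiaPaCa2 ZEB1 peak by 192 bp, and their summits were 199 bp apart. CTCF, which marks insulators and loop borders, had 2 further peaks before ELF3, with summits 4397 and 10721 bp from the start and folds of 12.1 and 14.3. Thus 1 of the 6 MiaPaCa2 ZEB1 peaks near the genes overlapped a CTCF peak, where 20.2% of the whole list did, and 1 of the 7 CTCF peaks overlapped a ZEB1 peak of these cells, where 3.1% of the CTCF list did. Of the regions present in all 4 ZEB1 lists 224 of 916, or 24.5%, overlapped a CTCF peak, so the ELF3 site with CTCF and the OVOL2 site without it both belong to common classes. The ELF3 peaks of the delta-Repeat clone, the WT clone and RKO overlapped the same CTCF peak by 138, 153 and 80 bp, where 22.7%, 20.4% and 14.8% of these lists met CTCF. CTCF was measured in unmodified MiaPaCa2 cells, not in the clones or in RKO.

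ESRP1 and ESRP2, the 2 splicing regulators, differed in the line that had the peak. At ESRP1, unmodified MiaPaCa2 had a ZEB1 peak on chromosome 8 from 95653073 to 95653342, with its summit 156 bp before the start and a 6.24-fold enrichment (−log10 q 6.26). It was of middling strength, with 56.1% of the MiaPaCa2 list at or above it. No other list had a peak within 20 kb, and the nearest summits were 561, 3424 and 172 kb away in the delta-Repeat clone, the WT clone and RKO.

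ESRP2 had a run of 5 ZEB1 peaks in RKO on chromosome 16, spread over 3889 bp around the start. The strongest lay from 68268851 to 68269953, with its summit 412 bp from the start, a 13.1-fold enrichment (−log10 q 49.1) and 7.15% of the RKO list at or above it by fold. The next lay from 68270062 to 68270475, with its summit 260 bp to the other side and an 11.1-fold enrichment (−log10 q 22.1). Another, from 68268125 to 68268614, had a 9.91-fold enrichment (−log10 q 24.6). The outer pair on the higher-coordinate side, from 68270548 to 68271465 and from 68271814 to 68272013, were enriched 6.00-fold (−log10 q 9.57) and 4.90-fold (−log10 q 5.24). Gaps of 72 to 348 bp separated neighbouring peaks, and the 5 peaks covered 3125 bp.

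Runs at least this tight were counted in each list, with the ESRP2 run as the measure. Stretches in which 5 summits lay within 3543 bp, the span of the ESRP2 run, held 33 of the 7193 RKO peaks, or 0.459%, at 6 places. Both the number of summits and the span were taken from the ESRP2 run, so its own 5 peaks are among the 33. The share therefore does not measure how unusual the run is. The same criterion was met by 0 of the peaks of the delta-Repeat clone, the WT clone, MiaPaCa2 and CTCF. A caller can divide a broad enrichment into several intervals, so the number of peaks does not count separate bound sites. The other ZEB1 lists had no peak near ESRP2, with the nearest summits 285 kb away in the delta-Repeat clone, 352 kb in the WT clone and 285 kb in MiaPaCa2. A CTCF peak of MiaPaCa2 lay from 68263253 to 68263748, with its summit 6503 bp from the start and a 14.1-fold enrichment (−log10 q 49.7), and overlapped none of the RKO ZEB1 peaks.

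The grainyhead-like pair differed in another way, as GRHL2 alone had peaks within 20 kb. At GRHL2 the RKO list had a weak ZEB1 peak on chromosome 8 from 102504488 to 102504713, across the start, with its summit 131 bp from it and a 4.63-fold enrichment (−log10 q 6.86). Of the RKO list 84.1% was at or above it. The nearest summits of the delta-Repeat clone, the WT clone and MiaPaCa2 were 539, 1279 and 539 kb away. CTCF had a peak with its summit 9166 bp from the GRHL2 start and a 6.83-fold enrichment (−log10 q 11.2). GRHL1 had no peak within 20 kb in any of the 5 lists. The nearest ZEB1 peak to GRHL1 was the same one in all 4 ZEB1 lists, on chromosome 2 and sharing 204 bp, with summits 61.5 kb away in the delta-Repeat clone, 61.4 kb in the WT clone, 61.3 kb in MiaPaCa2 and 61.5 kb in RKO. The next coding gene after GRHL1 in that direction is KLF11 in the RefSeq gene order of GRCh38.p14.

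OVOL1 did not share the strong ZEB1 peak of its relative OVOL2. Its one ZEB1 peak was in RKO, on chromosome 11 from 65565172 to 65565371, with its summit 10791 bp from the start and a 4.44-fold enrichment (−log10 q 4.22). It was the weakest of the 9 RKO peaks near the genes. CTCF, measured in MiaPaCa2, had 2 peaks within 20 kb of OVOL1, both on the lower-coordinate side. The next coding gene on that side is AP5B1 in the RefSeq gene order of GRCh38.p14. A CTCF peak from 65547127 to 65548020 was enriched 37.2-fold (−log10 q 130), ranked 224 of 31754 and had its summit 7004 bp from the start. A second CTCF peak, from 65537269 to 65537646, had a fold of 13.2 and a summit 17046 bp away.

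KLF5 had 1 ZEB1 peak, in MiaPaCa2, on chromosome 13 from 73633238 to 73633437, with a 5.45-fold enrichment (−log10 q 4.80) and 73.4% of the list at or above it. Its summit lay 4168 bp past the start position used here. RefSeq lists 2 starts for KLF5 that are 4029 bp apart in GRCh38.p14, with the gene read toward higher coordinates, and the distance of the peak from the second start was not measured in hg19. The nearest ZEB1 summits of the delta-Repeat clone, the WT clone and RKO were 2495, 2495 and 1080 kb away, and that of CTCF 215 kb.

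**Figure D3:**
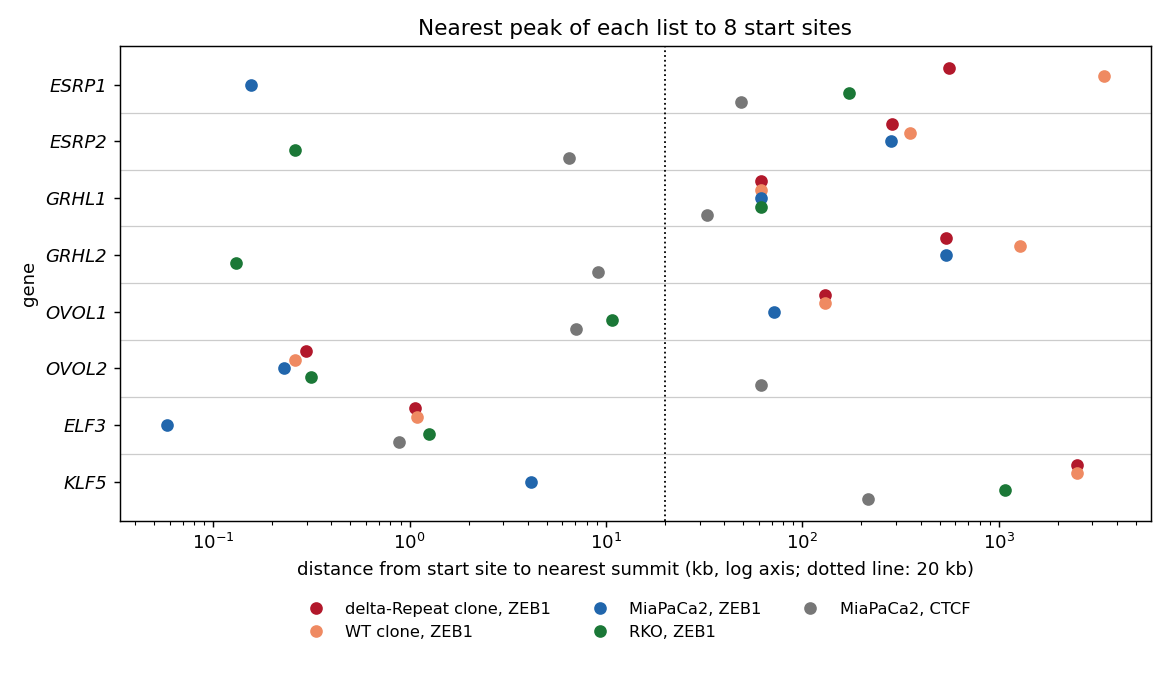
Distance from each of the 8 start sites to the nearest summit of each list, in kb on a log axis, with a dotted line at 20 kb. The ZEB1 points of OVOL2 and ELF3 lie left of the line in all 4 lists, and those of GRHL1 all lie near 61 kb.

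Set beside the whole lists, peaks near the 8 genes were shared as follows. In the delta-Repeat clone 2 of 2 member peaks overlapped a WT clone peak, where 51.3% of that list did, and in the WT clone 3 of 3 overlapped a delta-Repeat clone peak, where 73.4% did. The same 2 of 2 and 3 of 3 overlapped a MiaPaCa2 peak, where 86.6% and 95.2% of these lists did. In the other direction 2 of the 6 MiaPaCa2 peaks were in the delta-Repeat clone and 2 in the WT clone, where 38% and 29.3% of the list were. Of the 6 MiaPaCa2 peaks 2 overlapped an RKO peak, where 57.4% of the list did. Of the 9 RKO peaks 2 overlapped a MiaPaCa2 peak, where 39.1% did. With so few peaks, of which 5 in RKO belong to ESRP2, these shares do not set the 8 genes apart from the lists. Joined across lists, the ZEB1 peaks near the genes made 13 regions, of which 11 were in 1 list only, where 63.7% of all regions were. Of these 11, 5 are the ESRP2 run in RKO and 2 are the further ELF3 peaks of MiaPaCa2. The 11 therefore do not count separate sites, and this share does not set the genes apart either.

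**Figure D4:**
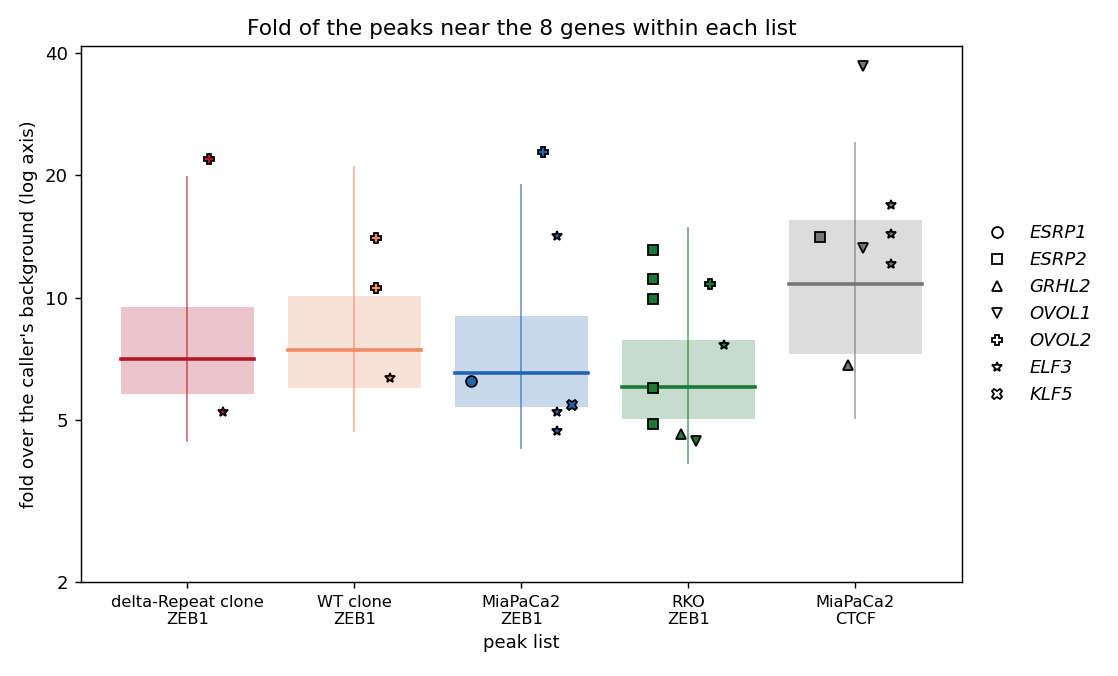
Fold over the caller's background, on a log axis, of each peak near the 8 genes within its own list. Boxes run from the lower to the upper quartile of the list with the median as a line, thin lines span the middle 90% of its peaks, and symbols name the gene. OVOL2 lies above the upper quartile in all 4 ZEB1 lists. Among the ZEB1 lists ELF3 does so in MiaPaCa2 alone, with its 14.2-fold peak. The 4.70-fold and 5.24-fold ELF3 peaks of MiaPaCa2 lie below the lower quartile.

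The strength of the member peaks was mixed. A fold above the list's own median was found for 1 of 2 peaks in the delta-Repeat clone, 2 of 3 in the WT clone, 2 of 6 in MiaPaCa2, 5 of 9 in RKO and 6 of 7 for CTCF. In MiaPaCa2 the 2 were the main peaks of OVOL2 and ELF3. In RKO they were the OVOL2 and ELF3 peaks and 3 of the ESRP2 run.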

How the data were processed

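Peak lists of 5 samples were used out of 9, and the 4 input samples were not analysed here. Alignment with Bowtie2 2.2.6, SAMtools and peak calling with MACS2 2.1.0.20150731 on hg19 are per the submitters' processing notes. The control library behind each list and any pooling are not given in the sources used here. In the deposited lists, fold enrichment is a ratio, on a linear scale, of signal at the summit to background. The authors' caller wrote p-values and q-values as −log10, and its deposited score repeats the q-value and was set aside. Fold and q describe and rank peaks within their own list only.

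Positions are counted from 1. Start positions came with the definition of the gene set and not from an annotation. The genes and the list of further epithelial genes were chosen with earlier results of these data known. Every peak near the 8 genes is named or counted. Peaks of 2 lists were shared where they had 1 or more bp in common. Python 3.11.15, numpy 2.4.6, pandas 2.3.3 and matplotlib 3.10.9 were used, and the overlap code was tested on simulated data. Promoter letters and gene order are RefSeq's for GRCh38.p14, and no position was converted between builds. Each condition has 1 sample, so no test was made and no error can be given. Alternatives were other windows, a stricter threshold, other overlap rules, equal list lengths, other bins and other E-box forms.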

Additional observations from a re-analysis of the deposited data

How the results depend on the processing

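No paired analysis was possible because each condition has 1 sample. The CAGGTA form was chosen after seeing the data. Of 124 alternative values, 76 stayed within 1.5 times. With the stricter threshold (minimum fold 5, minimum −log10 q 10) the peaks near the genes numbered 1 in the delta-Repeat clone, 2 in MiaPaCa2 and 5 in RKO, and the genes with a peak 1 in the delta-Repeat clone, 1 in the WT clone, 2 in MiaPaCa2 and 3 in RKO. With ZEB1 lists cut to 1515 peaks they numbered 1, 2 and 4 peaks and 1, 2 and 2 genes in the delta-Repeat clone, MiaPaCa2 and RKO. Both settings remove weak peaks by construction, so the single-list peaks of ESRP1, GRHL2, OVOL1 and KLF5 and the presence of ELF3 in all 4 ZEB1 lists rest on the authors' threshold. ELF3 remained in MiaPaCa2 and RKO with the stricter threshold and in the WT clone and MiaPaCa2 with equal lengths, while OVOL2 remained in all 4 lists with both. The WT clone list had 1515 peaks as deposited, so equal lengths could remove none of its peaks. With 50 kb to the summit CTCF had 15 peaks, and ZEB1 and CTCF met at 2 peaks in MiaPaCa2 (both directions) and in RKO. The farthest ZEB1 and CTCF summits inside 20 kb lay 10791 and 17046 bp away, and the nearest outside lay 27289 bp (ELF3, ZEB1 in MiaPaCa2) and 25615 bp (ESRP2, CTCF). With 50% of both peaks, every ZEB1 pair compared shared 1 peak in each direction, but not the same one. Between the delta-Repeat clone and MiaPaCa2 it was the OVOL2 peak. Between the clones, between the WT clone and MiaPaCa2, and between MiaPaCa2 and RKO it was the ELF3 peak before the start. OVOL2 dropped out of these pairs because the overlap there covered less than 50% of the wider peak. With summits within 100 bp, MiaPaCa2 and RKO shared 1 in each direction, that at OVOL2. With the stricter threshold the delta-Repeat clone shared 1 with the WT clone and 1 with MiaPaCa2, and MiaPaCa2 shared 1 with each clone. The ZEB1 and CTCF overlap at ELF3 was 0 with 50% of both peaks and with summits within 100 bp for all 4 ZEB1 lists, and 0 for both clones with the stricter threshold. Bins with a CTCF summit held ZEB1 in 6.03%, 4.42%, 11.9% and 15.0% for the delta-Repeat clone, the WT clone, MiaPaCa2 and RKO. With CANNTG, 3 member promoter windows matched against 1. As depth is unknown, a missing peak may be an undetected one.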
